A study of Mus musculus with 4 samples.

Results

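The 38 cell cycle genes described here are 22 genes of the G2 and M phases and 16 genes of the S phase, taken by symbol from a fixed list, out of 30406 genes that the feature lists of all 4 libraries share. All 38 were found, each under 1 gene identifier. They were measured by single-cell RNA sequencing in CD45.2+ live immune cells sorted from mouse brains carrying the GL261 glioma, a transplantable mouse glioma line injected into the brain. The 4 groups were IFNaR-/- mice (called KO) and wild-type mice (WT), each without treatment and sorted on day 20 after tumour injection, and KO and WT mice given anti-PD1, a checkpoint-blocking antibody, at 200 µg per mouse into the abdomen on days 7, 11, 15 and 19 and sorted on day 25. The labels do not say which subunit of the type I interferon receptor the KO lacks, nor how many mice were pooled, and each group is 1 library of pooled suspensions. With 1 library per group no difference could be tested: shares carry exact Clopper-Pearson 95% intervals and ratios of counts carry exact 95% intervals, and all of these cover counting error only, not the spread between mice.

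A dividing cell copies its DNA in S phase and separates the copies in mitosis, after the G2 gap. The S members load, unwind and copy DNA, among them the Mcm helicase subunits, the sliding clamp Pcna and the enzymes Tyms, Rrm1 and Rrm2 that make DNA building blocks. The G2/M members build the spindle, hold and test the attachment of chromosomes and drive entry into and exit from mitosis, among them the cyclins Ccna2, Ccnb1 and Ccnb2, their kinase Cdk1 and the ubiquitin-ligase partners Ube2c and Cdc20. In tumour-infiltrating T cells these genes mark cells that divide after meeting antigen, whereas mature neutrophils have left the cycle.

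The G2 and M genes and the S genes are known for different promoter elements, and the promoters below are shown because the lists are kept apart on that ground throughout. Windows of 250 bases before to 50 bases after the RefSeq start (build GRCm38.p6) were matched for 19 of the 22 G2/M genes and for 14 of the 16 S genes. The cell cycle homology region (CHR, searched as TTTGAA or TTCGAA on both strands) was in 78.95% of the 19 G2/M windows, in 18.75% of the 16 S windows and in 19.23% of 32851 windows of all genes. The CCAAT box (CCAAT, both strands) was in 89.47% of G2/M windows, 81.25% of S windows and 37.41% of all windows. An E2F motif (TTTGGCGC, TTTGCCGC, TTTCGCGC or TTTCCCGC, both strands) was in 5.263% of G2/M windows, 37.5% of S windows and 2.265% of all windows. A match is a run of letters and no evidence of binding. The cyclin Ccnb2 (chr9:70421505-70421804, minus strand) and its kinase partner Cdk1 (chr10:69352863-69353162, minus strand) show the G2/M arrangement, with CHR and CCAAT matches in capitals (the window of Cdk1 also holds the one E2F match among the G2/M windows, TTTCGCGC, left in lower case), and the helicase subunits Mcm5 (chr8:75109259-75109558, plus strand) and Mcm6 (chr1:128359656-128359955, minus strand) show the S arrangement, with E2F and CCAAT matches in capitals. Each is written 5′ to 3′ in the direction of transcription.
Ccnb2: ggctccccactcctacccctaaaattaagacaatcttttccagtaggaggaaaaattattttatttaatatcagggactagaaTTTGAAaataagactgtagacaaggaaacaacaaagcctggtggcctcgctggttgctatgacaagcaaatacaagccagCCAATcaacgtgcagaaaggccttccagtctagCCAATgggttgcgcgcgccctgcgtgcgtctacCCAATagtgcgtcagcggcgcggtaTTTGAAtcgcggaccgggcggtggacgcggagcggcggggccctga
Cdk1: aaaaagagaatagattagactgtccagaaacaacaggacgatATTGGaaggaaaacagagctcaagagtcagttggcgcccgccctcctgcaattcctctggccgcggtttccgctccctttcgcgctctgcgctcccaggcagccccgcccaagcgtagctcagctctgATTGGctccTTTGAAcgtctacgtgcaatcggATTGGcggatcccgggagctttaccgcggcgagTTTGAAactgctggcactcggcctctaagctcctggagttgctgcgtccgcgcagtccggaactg
Mcm5: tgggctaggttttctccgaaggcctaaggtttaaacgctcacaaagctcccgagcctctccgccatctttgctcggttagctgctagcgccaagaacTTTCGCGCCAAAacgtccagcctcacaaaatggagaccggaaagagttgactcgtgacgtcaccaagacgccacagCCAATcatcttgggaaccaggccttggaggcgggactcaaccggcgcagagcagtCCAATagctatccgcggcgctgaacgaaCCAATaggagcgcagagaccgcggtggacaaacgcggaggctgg
Mcm6: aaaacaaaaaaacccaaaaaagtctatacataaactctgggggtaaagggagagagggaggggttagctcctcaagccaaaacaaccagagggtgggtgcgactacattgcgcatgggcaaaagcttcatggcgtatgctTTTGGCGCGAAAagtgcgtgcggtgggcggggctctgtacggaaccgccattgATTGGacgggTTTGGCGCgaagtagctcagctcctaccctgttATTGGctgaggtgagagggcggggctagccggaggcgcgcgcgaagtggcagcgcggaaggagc

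After filtering, 2726 and 4982 cells were used from the untreated KO and WT libraries, and 7881 and 8742 cells from the anti-PD1 KO and WT libraries. Median depth ran from 4940 unique molecular identifiers (UMIs, counts of single RNA molecules) per cell in the anti-PD1 KO library to 9481.5 in the untreated KO library, and total UMIs per library from 32410040 to 94732545. Over 10% mitochondrial UMIs were found in 24.18% and 21.01% of barcodes of the untreated KO and WT libraries and in 3.3% and 0.69% of those of the anti-PD1 KO and WT libraries, and 95 barcodes were shared by the anti-PD1 libraries. A T-cell gate (Cd3 genes) held 21.9% and 26.1% of the untreated KO and WT cells and 7.74% and 5.22% of the anti-PD1 KO and WT cells, although the labels say that CD3+ and CD3- cells were mixed in equal parts for the anti-PD1 sorts. A list of 14 interferon-stimulated genes summed to 652 UMIs per 1000000 UMIs (CPM) in untreated KO cells, against 3787 CPM in untreated WT cells, and to 622 CPM in anti-PD1 KO cells, against 4339 CPM in anti-PD1 WT cells. Ifnar1 stood at 130 and 97.9 CPM in untreated KO and WT cells and at 146 and 77.0 CPM in anti-PD1 KO and WT cells, so its RNA was not lost, and without the name of the deleted exon it checks nothing.

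Cells were put into lineages by raw marker UMIs and thinned to 2000 UMIs each, because a deeper cell shows more genes of any list. A cell counted as G2/M when it held UMIs of at least 2 different G2/M members, and as S when it held UMIs of at least 3 different S members. A stricter G2/M count of at least 4 different members was chosen after the data had been seen. Neutrophils served as a type that should not divide. Of 108 untreated KO neutrophils (median 7727 UMIs before thinning) 4.63% passed the gate of 2 members and 0.926% the gate of 4, and of 76 untreated WT neutrophils (median 3367 UMIs) none passed either gate, which allows a share of up to 3.95%. The anti-PD1 libraries held 7 and 8 neutrophils, too few to use.

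Many CD8 T cells of untreated mice were dividing. Of 362 untreated KO CD8 T cells 25.4% were in G2/M (21.0 to 30.2%), against 21.6% of 668 untreated WT CD8 T cells (18.5 to 24.9%). In S, the shares were 27.6% in KO (23.1 to 32.5%) and 18.4% in WT (15.5 to 21.6%), a log2 ratio of 0.59 (0.25 to 0.92). The G2/M intervals overlap and the S intervals do not. At least 4 G2/M members were found in 61 KO cells, or 16.9% (13.1 to 21.1%), and in 88 WT cells, or 13.2% (10.7 to 16%). The median depths were alike, 10134 UMIs in KO and 9903 in WT, and only 9 and 11 cells were too shallow to thin. Without thinning 51.2% of KO and 48.3% of WT cells passed the G2/M gate and 72.0% and 59.6% the S gate.

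**Figure D1:**
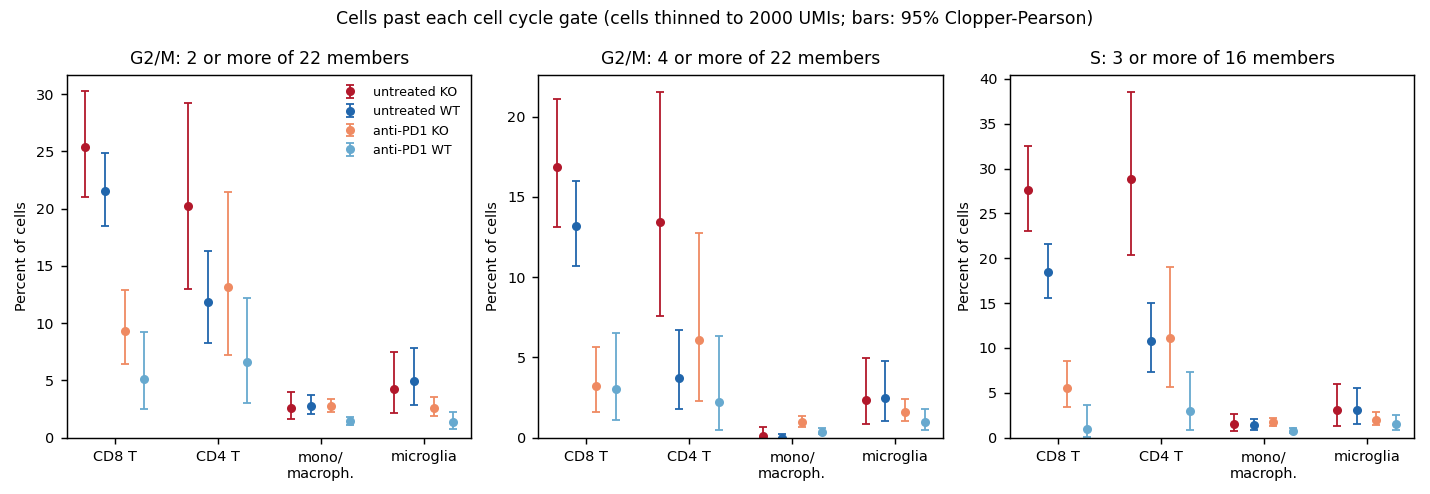
Percent of cells past each gate in the CD8 T, CD4 T, monocyte/macrophage and microglia lineages of the 4 libraries, with exact Clopper-Pearson 95% intervals and KO left of WT in each pair. In the S panel the untreated KO T lineages stand at 27.6% and 28.8%, against 18.4% and 10.7% in WT, and in the panel of 4 or more members the untreated myeloid lineage lies at 0.125% in KO and 0 in WT.

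Among G2/M members in untreated CD8 T cells none differed by 2-fold in either direction, where 2.61% of all genes did. Of the 22 members 15 were higher in KO and 7 lower, where 62.3% of 9188 genes measured from 50 UMIs upward were higher at all and 1.41% at least 2-fold higher. After a trimmed-mean (TMM) scaling, which moved the KO/WT ratio by -0.09 on the log2 scale in this lineage, 10 of the 22 were higher. The summed G2/M level was 1614 CPM in KO and 1543 CPM in WT, a log2 ratio of 0.06 that turned to -0.02 with TMM factors. Mki67, the standard proliferation marker, stood at 211 CPM in KO and 223 CPM in WT. Top2a, the topoisomerase that untangles replicated DNA, stood at 323 CPM in KO and 271 CPM in WT. The members furthest up were Ccnb1 (22.2 CPM in KO, 14.9 CPM in WT, log2 0.58), the spindle-checkpoint kinase Bub1 (26.3 and 18.8 CPM in KO and WT, log2 0.49) and Aurkb, a kinase of chromosome separation (32.9 and 26.0 CPM in KO and WT, log2 0.34). Furthest down were Cenpa, the histone variant of centromeres (97.2 and 120 CPM in KO and WT, log2 -0.30), the spindle protein Hmmr (27.2 and 33.3 CPM in KO and WT, log2 -0.29) and the kinetochore protein Cenpf (71.1 and 85.4 CPM in KO and WT, log2 -0.26). The ratios of Ccnb1 and Bub1 had counting intervals above 0 (0.17 to 0.98 and 0.12 to 0.85), and that of Hmmr did not exclude 0 (-0.62 to 0.03).

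The S members of untreated CD8 T cells were shifted more evenly. Of 16 members 13 were higher in KO (11 after TMM scaling), with a list median of 0.24 on the log2 scale beside 0.09 over all genes, and the summed S level was 1336 CPM in KO and 1104 CPM in WT (log2 0.28, and 0.19 with TMM factors). None differed by 2-fold. The helicase loader Cdc6 had 22.4 CPM in KO and 15.9 CPM in WT (log2 0.50). Among the helicase subunits, Mcm3 had 116 CPM in KO and 82.2 CPM in WT (log2 0.49, 0.32 to 0.66), Mcm2 had 78.0 and 57.5 CPM (log2 0.44) and Mcm5 had 107 and 80.7 CPM in KO and WT. Pcna had 181 CPM in KO and 143 CPM in WT. The lowest ratios belonged to Tyms, the thymidylate synthase (51.9 and 58.5 CPM in KO and WT, log2 -0.17), Uhrf1, which carries DNA methylation through replication (log2 -0.07), and Gins2, a helicase cofactor (log2 -0.05), and their intervals include 0.

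The summed levels do not say whether more cells divide or each dividing cell holds more RNA, so each member was also measured in cells chosen by at least 4 of the other G2/M members. Within those dividing CD8 T cells of the untreated mice, the G2/M members summed to 5957 CPM in KO and 6306 CPM in WT (log2 -0.08), with 8 of 22 members higher in KO and single ratios between -0.44 and 0.25. In the remaining CD8 T cells they summed to 365 CPM in KO and 367 CPM in WT (log2 -0.01). No share over all genes inside dividing cells is given beside the 8 of 22 members. Dividing cells held 22.7% of the CD8 UMIs in KO and 20.1% in WT. For G2/M, then, KO and WT levels lay close together both inside and outside the dividing cells. The S members were 2384 CPM in KO and 2217 CPM in WT within dividing cells (log2 0.10), and 1023 CPM in KO and 819 CPM in WT outside them (log2 0.32). The larger S difference was thus in cells that did not pass the G2/M gate, which include cells in S phase alone: 11.6% of KO and 7.93% of WT CD8 T cells passed the S gate only.

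**Figure D2:**
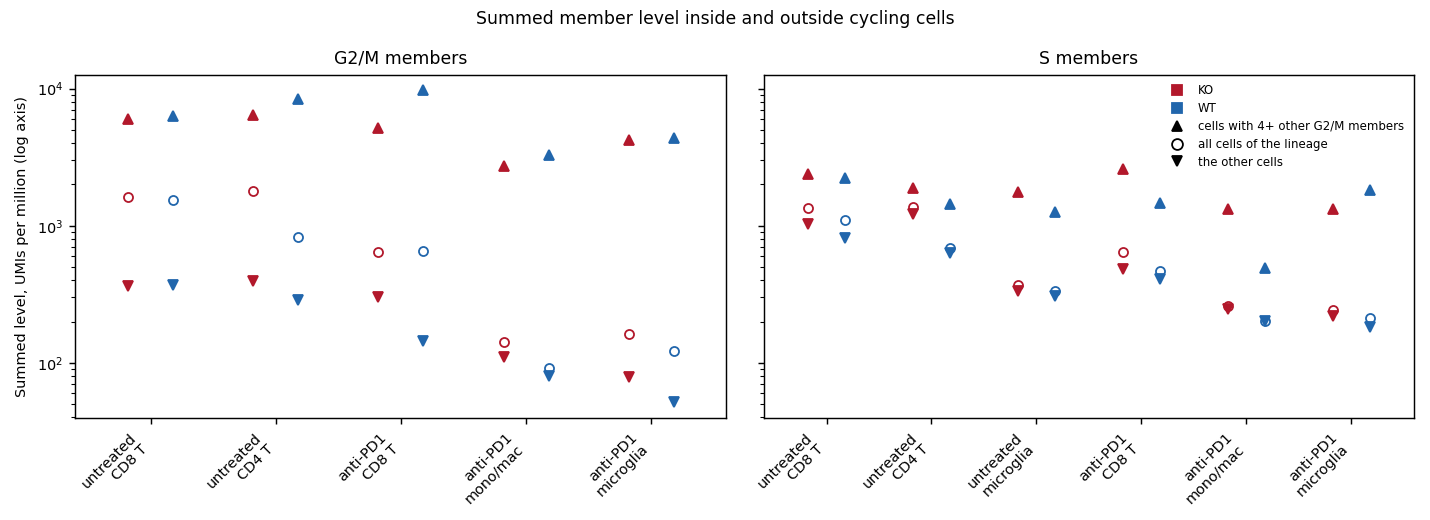
Summed level of the G2/M members (left) and S members (right) in CPM on a log axis, KO left of WT, for cells with 4 or more other G2/M members (triangles up), all cells of the lineage (open circles) and the other cells (triangles down), in lineages with at least 5 dividing cells in each library of the pair. In untreated CD8 T cells the dividing cells stand at 5957 CPM in KO and 6306 CPM in WT for G2/M, and the other cells at 365 and 367 CPM.

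Each G2/M member was far higher in dividing CD8 T cells than in the others, and the size differed among members. The largest ratios in untreated KO and WT were those of Hmmr (129-fold and 53.6-fold, the first with a log2 interval from 5.43 to 9.31, since only 3 UMIs lay in the other cells), Cenpf (75.4-fold and 37.2-fold), the survival and spindle protein Birc5 (41.9-fold and 25.3-fold), Ube2c (36.6-fold and 31.7-fold) and Ccnb2 (35.3-fold and 18.5-fold). The smallest were those of Cenpa (6.56-fold and 7.36-fold) and Top2a (9.20-fold and 10.2-fold). The S members were less bound to these cells. Rrm2, the ribonucleotide reductase subunit made in S phase, was 8.19-fold higher in dividing cells in KO and 16.3-fold in WT, whereas Mcm6 was 1.22-fold and 1.34-fold and Mcm2 1.21-fold and 1.39-fold. The uracil-DNA glycosylase Ung was lower in dividing cells, with 3.98 CPM in dividing and 12.2 CPM in other KO cells, and 3.08 CPM in dividing and 11.9 CPM in other WT cells, from 4 and 5 UMIs in the dividing cells. Over all genes with at least 50 UMIs, 5.75% of 7219 in untreated KO and 6.49% of 8369 in untreated WT were at least 2-fold higher in dividing than in other CD8 T cells, and 51.6% and 54.8% were higher at all. The gate and the G2/M ratios come from the same list and the same cells, so these values describe the gate.

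**Figure D3:**
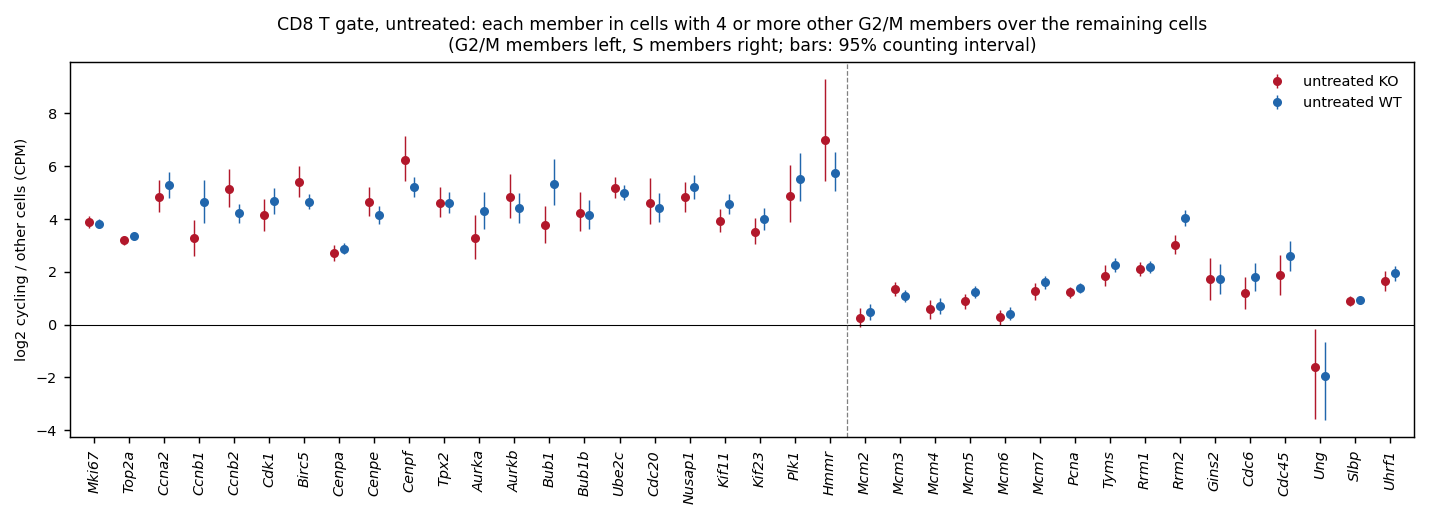
Log2 ratio of each member's CPM in untreated CD8 T cells with 4 or more other G2/M members over the remaining CD8 T cells, for KO (left point of each pair) and WT, with 95% counting intervals. The 22 G2/M members on the left lie between the 6.56-fold of Cenpa and the 129-fold of Hmmr in KO, and among the S members on the right Rrm2 is high while Ung lies below 0.

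Cell cycle genes outside the 38, from lists chosen with earlier results known, followed the same split. Of the mitosis genes with enough UMIs 32 of 32 were higher in dividing CD8 T cells in untreated KO and 33 of 33 in untreated WT, with medians of 3.53 and 3.95 on the log2 scale, beside 51.6% and 54.8% of all genes higher at all. Of the S and licensing genes 23 of 24 and 26 of 26 were higher in KO and WT, with medians of 1.49 and 1.81. Of the G1 regulators and inhibitors 9 of 16 and 10 of 17 were higher in KO and WT, beside 51.6% and 54.8% of all genes. By the median over libraries, the most raised were the separase Espl1 (5.56), Ckap2l (5.54) and the kinesin Kif2c (5.43), each measured in 2 libraries, and the lowest were the D-type cyclin Ccnd2 (-1.15) and the antiproliferative genes Btg1 (-0.92) and Btg2 (-0.64). Ccnd2 was lower in dividing cells in 3 of 4 libraries, with 57.4 CPM in dividing and 196 CPM in other untreated WT CD8 T cells, and higher in the anti-PD1 WT library, with 219 and 195 CPM from 6 dividing cells.

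Dividing CD8 T cells of untreated mice also held less effector RNA as a share of their UMIs. The cytotoxic list (granzymes, Prf1 and Nkg7) summed to 6416 CPM in dividing and 17950 CPM in other KO cells, and to 6959 CPM in dividing and 18360 CPM in other WT cells. After anti-PD1 it summed to 2611 and 3971 CPM in dividing and other KO cells and to 13441 and 13069 CPM in dividing and other WT cells, with 6 dividing cells in that WT library. The naive and memory list was lower in dividing cells in 4 of 4 libraries, by log2 ratios from -0.59 to -1.27, and the interferon list likewise, from -0.31 to -0.78. The oxidative phosphorylation list was higher in 4 of 4, from 0.07 to 0.40. The T-cell markers themselves were lower in 4 of 4, from -0.41 to -0.56, so every list is read beside that shift, and its part in these differences was not tested. The dividing cells were deeper, with medians of 16544 UMIs in dividing and 9664 in other KO cells, and 18120 in dividing and 9488 in other WT cells.

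CD4 T cells outside the regulatory gate differed more between the untreated libraries. In G2/M were 20.2% of 104 KO cells (13 to 29.2%) and 11.9% of 270 WT cells (8.25 to 16.3%). In S were 28.8% of KO cells (20.4 to 38.6%) and 10.7% of WT cells (7.31 to 15.1%), a log2 ratio of 1.43 (0.77 to 2.09). At least 4 G2/M members were found in 14 KO cells, or 13.5% (7.56 to 21.6%), and in 10 WT cells, or 3.70% (1.79 to 6.71%). At the loosest gate of 1 member the G2/M shares were 44.2% in KO and 44.4% in WT, so the difference was in cells that held several members. Brain-cell markers, which bear on cells stuck together, summed to 59.1 CPM in dividing and 17.4 CPM in other KO cells. Without cells that held a brain-marker UMI, 9 of 86 KO cells (10.5%, 4.90 to 18.9%) and 8 of 227 WT cells (3.52%, 1.53 to 6.83%) had at least 4 members. The share was thus still higher in KO. These intervals overlap, whereas those over all cells did not, and overlap of intervals does not show that shares are equal.

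Every measured member was higher in KO. In untreated CD4 T cells 20 of 20 measured G2/M members were higher in KO, 16 of them at least 2-fold, and 13 of 13 S members, 8 of them at least 2-fold, where 51.8% of all 6780 genes were higher at all and 2.45% at least 2-fold higher. Together the G2/M members gave 1796 CPM in KO and 818 CPM in WT, and the S level 1376 CPM in KO and 685 CPM in WT. The spindle protein Nusap1 (94.4 and 24.6 CPM in KO and WT, log2 1.94), the Aurora activator Tpx2 (log2 1.76) and Ccna2 (log2 1.68) led the G2/M members, and Mcm5 (137 and 32.0 CPM in KO and WT, log2 2.09), Uhrf1 (log2 1.95) and Mcm3 (log2 1.67) the S members. Cenpa (log2 0.34) and Slbp, which binds histone messages (log2 0.18), were nearest to equal. Within dividing cells the G2/M members summed to 6385 CPM in 13 to 14 KO cells and 8370 CPM in 10 WT cells, and dividing cells held 23.6% of the CD4 UMIs in KO against 6.6% in WT. That order turned in cells chosen by at least 2 other members, with 5095 CPM in KO and 4378 CPM in WT (log2 0.22). Outside the dividing cells of the stricter gate the G2/M members summed to 394 CPM in KO and 288 CPM in WT (log2 0.45). The S members outside dividing cells were again higher, at 1215 CPM in KO and 633 CPM in WT.

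Other lymphoid gates held fewer cells. Of regulatory T cells 10 of 37 (27.0%) in untreated KO and 21 of 102 (20.6%) in untreated WT were in G2/M, and 5 of 31 (16.1%) in anti-PD1 KO and 8 of 45 (17.8%) in anti-PD1 WT. Mki67 stood at 273 CPM, Top2a at 239 CPM, Mcm5 at 96.0 CPM and Pcna at 154 CPM in the 104 untreated WT regulatory T cells, the one such gate above 50 cells. Natural killer cells of untreated mice were in G2/M in 9.09% of 55 KO cells (3.02 to 20.0%) and 6.84% of 263 WT cells (4.11 to 10.6%). Their S level was 1132 CPM in KO and 630 CPM in WT, with 12 of 12 measured S members higher in KO, where 48.2% of all genes were higher at all, while their G2/M level was 519 CPM in KO and 575 CPM in WT. In the natural killer cells Mki67 stood at 60.1 and 74.1 CPM, Top2a at 124 and 86.0 CPM, Mcm5 at 91.8 and 32.8 CPM and Pcna at 165 and 87.6 CPM in KO and WT. The summed S level was thus higher in KO in CD8 T, CD4 T and natural killer cells, while the summed G2/M level was higher in CD4 T cells and, in CD8 T cells, turned with the scaling. In natural killer cells the log2 ratio of the summed G2/M level was -0.15 (-0.34 to 0.03), an interval that includes 0, and 5 of 8 measured G2/M members were higher in KO.

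T cells outside the CD8, CD4 and regulatory gates had 193 and 211 CPM of Mki67, 327 and 214 CPM of Top2a, 121 and 74.9 CPM of Mcm5 and 192 and 122 CPM of Pcna in untreated KO and WT. After anti-PD1 they had 65.0 and 186 CPM of Mki67, 95.9 and 129 CPM of Top2a, 27.8 and 31.4 CPM of Mcm5 and 99.0 and 120 CPM of Pcna in KO and WT, from 88 and 61 cells. Without treatment Mki67 was the one of these 4 members that was lower in KO. Of all measured members 17 of 21 in G2/M and 13 of 14 in S were higher, beside 51.7% of all genes. The S share without treatment was 33.8% in KO and 16.3% in WT, a log2 ratio of 1.05 (0.43 to 1.68). After anti-PD1 these 4 members were all lower in KO, but Mcm5 rests on 9 and 11 UMIs in KO and WT. Of measured members 0 of 4 in G2/M and 1 of 3 in S were then higher, beside 57.0% of all genes.

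Monocytes and macrophages of untreated mice hardly divided by the stricter gate. The gate of 2 members passed 2.62% of 802 KO cells (1.63 to 3.98%) and 2.80% of 1750 WT cells (2.08 to 3.69%), below the 5 of 108 KO neutrophils (4.63%), and these shares were not told apart from background. That level rests on few cells, since 0 of 76 WT neutrophils passed. KO neutrophils held more Mki67 than KO monocytes and macrophages, 42.9 CPM against 15.9 CPM. However, 25 of their 43 Mki67 UMIs lay in 1 cell, and the other KO neutrophils deep enough to thin had 19.0 CPM. At least 4 members were found in 1 of 802 KO cells (0.125%) and in 0 of 1750 WT cells. By the same rule for a count of 0 this allows a share of up to 0.171%, again below the exact limit. The curve of cells by number of members shows the difference from T cells. In CD8 T cells of untreated KO mice it flattened, with 19.6% of cells at 3 or more members, 16.9% at 4 or more and 14.1% at 6 or more. In the myeloid cells it kept dropping, with 22.6%, 2.62%, 0.249% and 0.125% of KO cells at 1, 2, 3 and 4 or more members and 25.5%, 2.80%, 0.457% and 0 of WT cells.

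**Figure D4:**
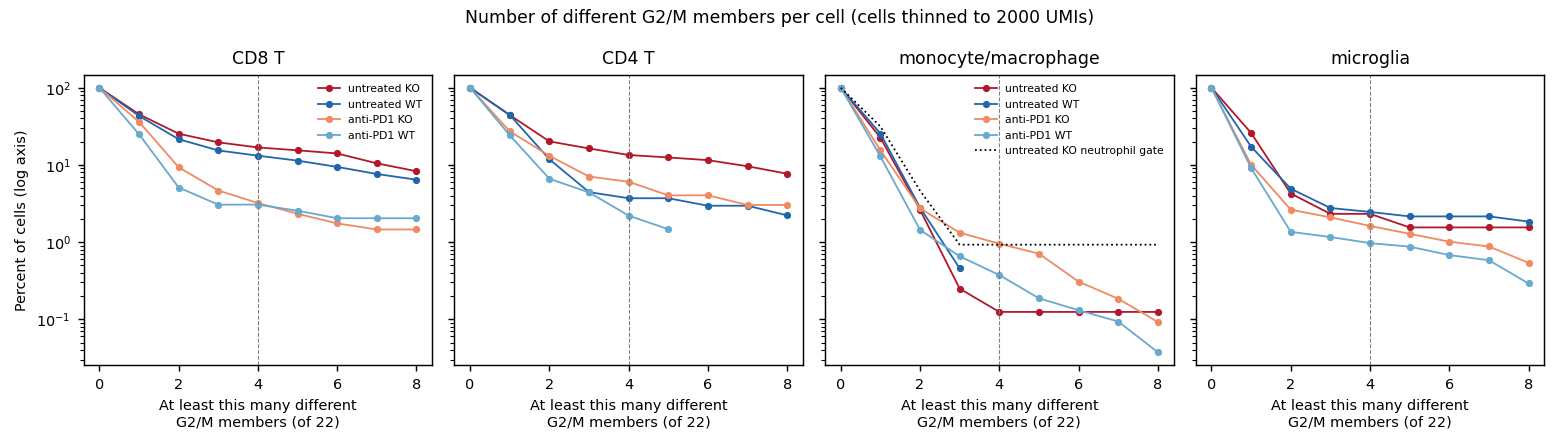
Percent of cells (log axis) that hold UMIs of at least the given number of different G2/M members after thinning to 2000 UMIs, by lineage and library, with the untreated KO neutrophil gate dotted in the monocyte/macrophage panel and a dashed line at 4 members. Untreated CD8 T cells level off near 16.9% in KO and 13.2% in WT, while untreated monocytes and macrophages drop to 0.125% in KO and to 0 in WT, which a log axis cannot show.

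The G2/M UMIs that these cells did carry came from a few members. Outside dividing cells, Cenpa made up 40.2% of the G2/M UMIs in untreated KO and 37.5% in untreated WT monocytes and macrophages, Mki67 12% and 14.3%, and the kinesin Kif23 11.3% and 13%. As a percent of their own level in CD8 T cells, Cenpa reached 54.2% in KO and 47.7% in WT and Kif23 31.6% and 52.3%, against 7.53% and 9.77% for Mki67. Whether overlapping genes add to the Cenpa and Kif23 counts was not tested. Their G2/M total was 136 CPM in KO and 154 CPM in WT (log2 -0.18), with 6 of 12 measured members higher, and the S level 295 CPM in KO and 288 CPM in WT, with 11 of 14 higher (8 after TMM scaling), where 56.5% of all 10285 genes were higher at all. The G2/M members at the ends were Cenpf (log2 0.64), Bub1b, a spindle-checkpoint protein (log2 0.45), and Aurkb (log2 0.35) upward, and Top2a (8.29 and 14.1 CPM in KO and WT, log2 -0.76), the spindle-pole kinase Aurka (log2 -0.73) and Kif23 (log2 -0.46) downward. The S members at the ends were Mcm3 (26.7 and 15.7 CPM in KO and WT, log2 0.76), Mcm7 (log2 0.59) and the reductase subunit Rrm1 (log2 0.56) upward, and Gins2 (log2 -0.63), Tyms (log2 -0.35) and Slbp (log2 -0.28) downward. Of Mki67 the cells held 15.9 CPM in KO and 21.8 CPM in WT, of Mcm5 9.86 and 9.01 CPM and of Pcna 86.3 and 83.7 CPM in KO and WT.

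After anti-PD1, monocytes and macrophages with several G2/M members were found in both genotypes, at a higher share in KO. At least 4 G2/M members were found in 31 of 3247 KO cells, or 0.955% (0.650 to 1.35%), and in 20 of 5340 WT cells, or 0.375% (0.229 to 0.578%), a log2 ratio of 1.35 (0.54 to 2.16). In untreated neutrophils 1 of 108 KO cells (0.926%) and 0 of 76 WT cells reached 4 members, so the neutrophils are too few to show that these shares lie above background. At the gate of 2 members the shares were 2.74% in KO (2.21 to 3.36%) and 1.44% in WT (1.14 to 1.80%), and in S 1.69% in KO (1.28 to 2.20%) and 0.768% in WT (0.552 to 1.04%). Depth differed, with medians of 4773 UMIs in KO and 8011 in WT, and 666 KO and 333 WT cells were too shallow to thin. Without thinning the order turned, with 9.02% of KO and 9.87% of WT cells past the G2/M gate and 9.81% and 16% past the S gate. Brain-cell markers summed to 85.6 CPM in dividing and 60.0 CPM in other KO cells, and to 105 CPM in dividing and 45.5 CPM in other WT cells. Without cells holding such a UMI the shares with 4 members were 0.877% in KO (21 of 2394) and 0.282% in WT (11 of 3907). T-cell markers were at 0 UMIs in the dividing cells of both libraries, but the gate admits at most 1 Cd3 UMI, so this value describes the gate.

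Most members were also higher in KO. Of 22 G2/M members 21 were higher in KO and 9 at least 2-fold, and of 16 S members 13 were higher, 2 of them at least 2-fold, and 1 (Mcm4) was at least 2-fold lower, where 57.4% of all 11642 genes were higher at all, 10.3% at least 2-fold higher and 7.88% at least 2-fold lower. TMM factors moved the ratio by -0.12, after which 19 of 22 and 12 of 16 were higher. The summed G2/M level was 141 CPM in KO and 91.7 CPM in WT (log2 0.62), and the S level 262 CPM in KO and 202 CPM in WT (log2 0.38). Leading G2/M members were the spindle motor Kif11 (2.65 and 0.746 CPM in KO and WT, log2 1.82), Nusap1 (2.65 and 0.766 CPM, log2 1.78) and Cenpf (2.87 and 0.867 CPM, log2 1.72). The lowest were Aurka (log2 -0.25), Cdc20 (log2 0.02) and Mki67 (16.9 and 15.8 CPM in KO and WT, log2 0.10), the last 2 of which turned to -0.10 and -0.02 with TMM factors. Leading S members were Rrm2 (2.43 and 0.907 CPM in KO and WT, log2 1.42), Ung (log2 1.02) and Uhrf1 (log2 0.84), and Pcna had 103 CPM in KO and 57.7 CPM in WT. Mcm5 had 7.28 CPM in KO and 5.02 CPM in WT and Top2a 13.1 and 7.22 CPM.

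A trio of S members stood apart downward in the anti-PD1 myeloid cells. In monocytes and macrophages Mcm4, a helicase subunit, had 13.9 CPM in KO and 28.0 CPM in WT (log2 -1.01, -1.19 to -0.83), Tyms 3.8 and 5.08 CPM (log2 -0.41) and Gins2 6.0 and 7.96 CPM (log2 -0.40). The same members were the lowest S members of the microglia gate, where Mcm4 had 7.14 CPM in KO and 14.3 CPM in WT (log2 -1.0), Tyms had a log2 ratio of -0.70 and Gins2 of -0.70. The order of Mcm4 was the reverse in the dividing cells. In WT monocytes and macrophages Mcm4 had 15.7 CPM in dividing cells, from 3 UMIs, and 28.2 CPM in the others, and in KO 71.3 CPM in dividing and 13.3 CPM in other cells. In CD8 T cells after anti-PD1 Mcm4 was higher in KO, at 54.7 CPM against 29.7 CPM in WT.

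**Figure D5:**
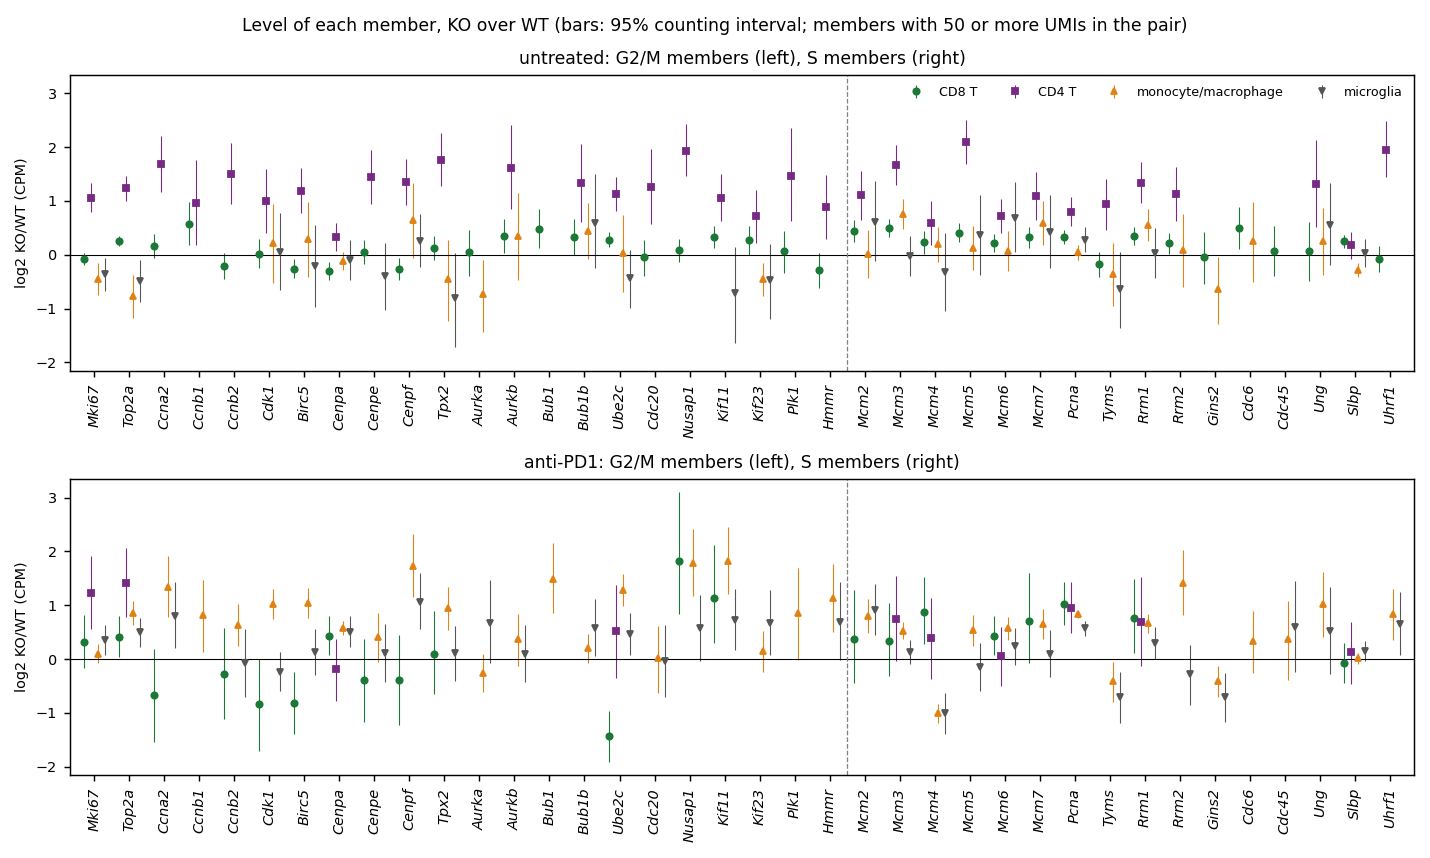
Log2 KO/WT ratio of CPM for each member with at least 50 UMIs in the pair, G2/M members left and S members right of the dashed line, in the CD8 T, CD4 T, monocyte/macrophage and microglia lineages, untreated (top) and anti-PD1 (bottom), with 95% counting intervals. In the top panel the CD4 T points lie above 0 with Mcm5 at 2.09, and in the bottom panel Mcm4 lies at -1.01 in monocytes and macrophages and at -1.0 in microglia. With TMM factors the CD8 T points move by -0.09 (top) and -0.21 (bottom), which turns 5 and 1 G2/M members from above to below 0.

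Inside the dividing monocytes and macrophages of anti-PD1 mice the phases differed. The G2/M members summed to 2706 CPM in KO and 3253 CPM in WT (log2 -0.27), with 9 of 21 measured members higher in KO, while the S members summed to 1326 CPM in KO and 488 CPM in WT (log2 1.44), with 11 of 11 measured members higher in KO. The share of all genes higher in KO inside dividing cells is not given here, so these counts have no background beside them. Pcna gave 299 CPM from 84 UMIs in KO and 78.7 CPM from 15 UMIs in WT, and Rrm2 99.8 CPM from 28 UMIs in KO and 36.7 CPM from 7 UMIs in WT. In the other cells the G2/M level was 110 CPM in KO and 80.7 CPM in WT and the S level 247 CPM in KO and 201 CPM in WT. Dividing cells held 1.21% of the lineage's UMIs in KO and 0.346% in WT. The G2/M order inside dividing cells turned with the gate. In cells chosen by at least 2 of the other G2/M members, both phases were higher in KO. The G2/M members then summed to 1740 CPM in KO and 1561 CPM in WT (log2 0.16). The S members summed to 942 CPM in KO and 556 CPM in WT (log2 0.76).

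Genes outside the 38 that move in dividing monocytes and macrophages were much as in T cells. Mitosis genes were higher in 21 of 21 measured in KO and 22 of 24 in WT, S and licensing genes in 17 of 17 and 18 of 20, and G1 regulators in 11 of 18 and 12 of 18, where 61.4% of all genes in KO and 69.1% in WT were higher at all. By the median over libraries Cdca3 (6.10), the spindle bundler Prc1 (6.04) and the kinetochore scaffold Knl1 (6.02) were most raised, and Btg1 (-0.72), Btg2 (-0.44) and the inhibitor Cdkn1a (-0.44) least. The monocyte list was 463 CPM in dividing and 463 CPM in other KO cells and 231 CPM in dividing and 2541 CPM in other WT cells. The macrophage list was 16660 CPM in dividing and 30624 CPM in other KO cells and 32607 CPM in dividing and 34490 CPM in other WT cells. In WT the monocyte list was thus lower in dividing cells, and in KO the macrophage list was; 31 and 20 dividing cells stand behind these values in KO and WT.

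Microglia, the resident macrophages of the brain, held cells past the stricter gate in every library. Of untreated KO neutrophils 0.926%, or 1 cell, passed that gate too. At least 4 G2/M members were found in 6 of 258 untreated KO cells (2.33%, 0.858 to 4.99%) and 8 of 325 untreated WT cells (2.46%, 1.07 to 4.79%), and in 24 of 1481 anti-PD1 KO cells (1.62%, 1.04 to 2.40%) and 10 of 1030 anti-PD1 WT cells (0.971%, 0.467 to 1.78%). All intervals overlap. Without cells that held a brain-marker UMI the shares were 3 of 185 untreated KO cells (1.62%) and 4 of 270 untreated WT cells (1.48%), and 21 of 1298 anti-PD1 KO cells (1.62%, 1.00 to 2.46%) and 4 of 822 anti-PD1 WT cells (0.487%, 0.133 to 1.24%). These intervals overlap too, which does not show that the shares are equal. Depth after anti-PD1 was 6492 UMIs in KO and 11739.5 in WT, and at the gate of 2 members the KO share was higher with thinning (2.63% in KO, 1.36% in WT) and lower without it (7.14% in KO, 11.1% in WT). Of G2/M members 3 of 12 measured were higher in KO without treatment, beside 53.7% of all genes, and 16 of 19 after anti-PD1, beside 63.0% of all genes. Of S members 8 of 11 were higher in KO without treatment and 10 of 15 after anti-PD1. Mki67 stood at 51.8 and 66.6 CPM in untreated KO and WT and at 19.2 and 15.0 CPM in anti-PD1 KO and WT. Top2a stood at 32.2 and 45 CPM, Mcm5 at 12.2 and 9.46 CPM and Pcna at 111 and 91.4 CPM in untreated KO and WT. After anti-PD1, Top2a stood at 22.2 and 15.7 CPM, Mcm5 at 6.62 and 7.34 CPM and Pcna at 86.4 and 58.3 CPM in KO and WT.

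Levels inside the dividing microglia were alike between genotypes for G2/M after anti-PD1, 4196 CPM in KO and 4335 CPM in WT. Outside them the G2/M level was 79.3 CPM in KO and 51.6 CPM in WT. For S the dividing cells had 1317 CPM in KO and 1832 CPM in WT, the opposite order to that in monocytes and macrophages. Dividing microglia had a lower macrophage list in 4 of 4 libraries, by log2 ratios from -0.26 to -1.44, and a lower MHC class II list in 4 of 4, from -0.73 to -1.37. The brain-cell list was 118 CPM in dividing and 32.2 CPM in other untreated WT microglia.

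Dendritic, neutrophil and mast gates held few dividing cells. In dendritic cells Mki67 stood at 11.1 and 19.5 CPM, Top2a at 18.9 and 9.36 CPM, Mcm5 at 23.8 and 10.9 CPM and Pcna at 77.1 and 74.1 CPM in untreated KO and WT. After anti-PD1 they had 23.2 and 14.1 CPM of Mki67, 27.6 and 16.9 CPM of Top2a, 10.7 and 16.9 CPM of Mcm5 and 110 and 54.0 CPM of Pcna in KO and WT. Neutrophils of untreated KO and WT had 42.9 and 16.5 CPM of Mki67, 27.9 and 12.3 CPM of Top2a, 9.98 and 6.17 CPM of Mcm5 and 66.9 and 67.9 CPM of Pcna. In KO 1 cell past the stricter gate held 25 Mki67 and 16 Top2a UMIs. The other neutrophils deep enough to thin had 19.0 and 14.7 CPM of Mki67 and 11.6 and 12.6 CPM of Top2a in KO and WT. Pcna thus had a level in neutrophils, which should not divide, near that in untreated dendritic cells and monocytes. Mast cells and basophils of untreated WT had 6.81 CPM of Mki67, 44.3 CPM of Top2a, 17.0 CPM of Mcm5 and 64.7 CPM of Pcna.

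The migratory and plasmacytoid dendritic gates are given with a limit, because microglial markers were in 85.8% of anti-PD1 KO and 56.9% of anti-PD1 WT cells of the first and in 81.8% and 85.4% of the second. In the migratory gate Mki67 stood at 11.1 and 44.1 CPM, Top2a at 9.49 and 33.3 CPM, Mcm5 at 9.49 and 11.6 CPM and Pcna at 79.9 and 73.8 CPM in untreated KO and WT. After anti-PD1 the values were 44.7 and 23.4 CPM of Mki67, 31.8 and 12.5 CPM of Top2a, 8.68 and 10.4 CPM of Mcm5 and 88.1 and 61.8 CPM of Pcna in KO and WT. In the plasmacytoid gate of anti-PD1 KO and WT the values were 25.5 and 16.8 CPM of Mki67, 20.5 and 13.5 CPM of Top2a, 2.48 and 4.83 CPM of Mcm5 and 106 and 55.4 CPM of Pcna. In KO 1 dividing cell held 29 of 41 Mki67 and 20 of 33 Top2a UMIs, and in WT 4 held 35 of 66 and 34 of 53. The other cells had 7.60 and 8.08 CPM of Mki67 and 8.23 and 4.95 CPM of Top2a in KO and WT. Untreated WT cells of that gate had 13.4 CPM of Mki67, 18.2 CPM of Top2a, 10.5 CPM of Mcm5 and 73.5 CPM of Pcna.

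The anti-PD1 libraries held a lower share of CD8 T cells in G2/M at 2000 UMIs, with log2 ratios of anti-PD1 over untreated of -1.45 in KO and -2.08 in WT. With cells thinned to 4000 UMIs, which leaves out shallower cells, the ratios were -0.03 in KO and -1.03 in WT. In G2/M were 9.33% of 343 anti-PD1 KO cells (6.47 to 12.9%) and 5.10% of 196 anti-PD1 WT cells (2.47 to 9.18%), and at least 4 members were found in 3.21% of KO and 3.06% of WT cells, 11 and 6 cells. In S were 5.54% of KO cells (3.37 to 8.52%) and 1.02% of WT cells (0.124 to 3.64%), or 19 and 2 cells. Without thinning the S order turned, with 16.6% of KO and 20.5% of WT cells, at median depths of 3342 UMIs in KO and 4660 in WT. Of 13 measured G2/M members 6 were higher in KO, 2 of them at least 2-fold, and 1 was at least 2-fold lower, where 61.1% of all 6020 genes were higher at all, 9.17% at least 2-fold higher and 5.6% at least 2-fold lower. Of 8 measured S members 7 were higher.

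Single members of the anti-PD1 CD8 T cells rest on few cells. Nusap1 had 30.8 CPM in KO and 8.36 CPM in WT (log2 1.82), Kif11 31.5 and 13.9 CPM (log2 1.14) and Cenpa 125 and 92.0 CPM (log2 0.43). Ube2c had 40.4 CPM in KO and 109 CPM in WT (log2 -1.42), Cdk1 15.1 and 26.9 CPM (log2 -0.83) and Birc5 32.8 and 57.6 CPM (log2 -0.81). Of the 117 Ube2c UMIs in WT 113 lay in the dividing cells, which numbered at most 6. Among S members Pcna had 142 CPM in KO and 69.7 CPM in WT (log2 1.02), Mcm4 54.7 and 29.7 CPM (log2 0.87) and Rrm1 43.1 and 25.1 CPM (log2 0.77), and at the low end Slbp had a log2 ratio of -0.08, Mcm3 of 0.34 and Mcm2 of 0.38. Mki67 had 65.0 CPM in KO and 52.0 CPM in WT, Top2a 112 and 84.5 CPM and Mcm5 19.2 and 18.6 CPM. TMM factors moved these ratios by -0.21 and turned none of the 8 measured S members. G2/M members together gave 630 CPM in KO and 652 CPM in WT, and the S level 640 CPM in KO and 467 CPM in WT.

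Anti-PD1 CD4 T cells resembled the untreated pair in order. In G2/M were 13.1% of 99 KO cells (7.18 to 21.4%) and 6.62% of 136 WT cells (3.07 to 12.2%), and in S 11.1% of KO cells (5.68 to 19.0%) and 2.94% of WT cells (0.807 to 7.36%). Mki67 had 101 CPM in KO and 43.1 CPM in WT, Top2a 125 and 47.0 CPM, Mcm5 30.8 and 32.6 CPM and Pcna 180 and 92.7 CPM. Of 4 measured G2/M members 3 were higher in KO, beside 55.4% of all genes, and of 6 S members 6.

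Set against the untreated libraries, CD8 T cells of both genotypes had lower levels of nearly every member after anti-PD1. In KO 1 of 22 G2/M members was higher and 20 at least 2-fold lower, and 1 of 16 S members was higher and 13 at least 2-fold lower, where 51.9% of all 8147 genes were higher at all and 8.03% at least 2-fold lower. The one higher G2/M member was Cenpa, with 125 CPM after anti-PD1 and 97.2 CPM without, and the one higher S member was Mcm6, with 125 and 118 CPM. In WT 0 of 22 G2/M members and 0 of 16 S members were higher, with 16 and 12 at least 2-fold lower, where 52.0% of all 8730 genes were higher at all and 9.93% at least 2-fold lower. Mki67 in WT had 52.0 CPM after anti-PD1 and 223 CPM without, and Mcm5 18.6 and 80.7 CPM. Day of sorting, sort mixture, depth and Cell Ranger version differ between anti-PD1 and untreated, so treatment cannot be told apart from them. Within dividing cells the G2/M level was 5142 CPM after anti-PD1 and 5957 CPM without in KO, and 9737 CPM and 6306 CPM in WT. Outside them it was 302 CPM after anti-PD1 and 365 CPM without in KO, and 145 CPM and 367 CPM in WT.

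The myeloid share went the other way by the stricter gate. In monocytes and macrophages at least 4 members were found in 0.955% of anti-PD1 KO cells against 0.125% of untreated KO cells, and in 0.375% of anti-PD1 WT cells against 0 of 1750 untreated WT cells. At the gate of 2 members, which 4.63% of untreated KO and 0 of 76 untreated WT neutrophils passed, the shares were 2.74% after anti-PD1 and 2.62% without in KO, and 1.44% and 2.80% in WT. The summed G2/M level was 141 CPM after anti-PD1 and 136 CPM without in KO, and 91.7 CPM and 154 CPM in WT. Cenpa and Kif23, which are among the members carried by non-dividing cells, were lower after anti-PD1: Kif23 had 3.88 CPM after anti-PD1 and 14.7 CPM without in KO, and 3.53 and 20.2 CPM in WT. Mki67, also among those members, was lower after anti-PD1 in WT but slightly higher in KO.

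Doublets, droplets with more than 1 cell, bear on these shares. Barcodes removed for a high doublet score passed the G2/M gate in 20.0% of 65 untreated KO and 15.8% of 272 untreated WT cells, against 8.82% and 8.0% of the cells kept, and in 3.99% of 552 anti-PD1 KO and 1.68% of 714 anti-PD1 WT cells, against 3.78% and 2.14% of the cells kept. T cells with resting markers also divided. Of untreated KO T cells with at least 4 UMIs of such markers 14.7% held at least 4 G2/M members, against 15.4% of the other T cells, and in untreated WT the shares were 4.81% and 10.9%. After anti-PD1 they were 7.14% of 56 such cells against 3.54% of the others in KO, and 8.86% of 79 against 3.14% in WT.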

How the data were processed

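Single-cell RNA libraries were made with a 10x Genomics 5' kit, per the labels' protocols. The authors deposited UMI counts per gene and barcode, which the file headers give as made with Cell Ranger 3.1.0 (untreated) and 7.2.0 (anti-PD1), per the file headers, against mm10 (GRCm38), per the submitters' processing notes. Alignment settings and filters on barcodes are not given in the sources used here.

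Counts were read as deposited, over the genes shared by all libraries. Cells with at least 200 genes and at most 10% mitochondrial UMIs were kept, and the highest Scrublet scores (scanpy 1.11.5), up to 0.8% per 1000 barcodes, were removed as doublets. Lineages were gated on raw marker UMIs. T cells needed at least 2 Cd3 UMIs and no other lineage's minimum, and were split by any UMI of Cd8a or Cd8b1, of Cd4, or of Foxp3 (regulatory). Other cells had at most 1 Cd3 UMI, myeloid cells at least 3 myeloid UMIs, and of these microglia at least 3 and monocytes and macrophages at most 1 microglial UMI. Cells were thinned to 2000 UMIs for shares, with shallower cells left out. Levels are UMIs per 1000000 UMIs of the lineage (CPM), without thinning. Levels within dividing cells use cells with at least 4 other members of the G2/M list. Ratios are named from 50 UMIs in the pair. Zero counts used a pseudocount of 0.5 UMIs, and a count of 0 allows up to 3. The counting intervals were tested on simulated data. edgeR 4.0.16 (TMM factors) and DESeq2 1.42.0 (median-of-ratios) in R 4.3.3 gave scaling alternatives only, since no test was possible with 1 library per group. Python 3.11.15, numpy 2.4.6, scipy 1.17.1 and pandas 2.3.3 did the rest.

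Named genes were, in each pair, the 3 highest and 3 lowest members of each list in the CD8 T and monocyte/macrophage gates, Mki67, Top2a, Mcm5 and Pcna in every gate of at least 50 cells, and the 3 most and 3 least raised other cell cycle genes in dividing cells. CD4 T and microglia members outside that rule, and single members set beside them, were named after their values were seen. The members and all lists were chosen with earlier results of these data known. Alternatives were the gate size, the thinning depth, no thinning, scaling, the mean over cells, the doublet filter and, added after seeing the data, 4 members and cells without brain markers.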

Additional observations from a re-analysis of the deposited data

Results flagged for a closer look

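Among the 16 share ratios and 8 level ratios whose processing was varied, these had opposite directions in the untreated and the anti-PD1 pair. The difference between pairs was not tested. The log2 ratio of KO over WT for the G2/M share of monocytes and macrophages was 0.93 after anti-PD1 and -0.10 without treatment, and that of microglia 0.95 after anti-PD1 and -0.21 without. The summed G2/M level of monocytes and macrophages had a ratio of 0.62 after anti-PD1 and -0.18 without, and that of CD8 T cells -0.05 after anti-PD1 and 0.06 without, the last turning to -0.02 with TMM factors. Summed G2/M levels outside that choice also changed direction. The ratio was 0.40 after anti-PD1 and -0.18 without in microglia, and 0.41 and -0.44 in dendritic cells. In the migratory gate it was 1.46 and -0.78, and in T cells outside the CD8, CD4 and regulatory gates -1.31 and 0.28. Few dividing cells stand behind these levels. At least 4 members were found in 0% of KO and 0.658% of WT cells of the untreated migratory gate. In these other T cells after anti-PD1 the shares were 1.59% in KO and 5.77% in WT. Their share at 2 members had the opposite order, 11.1% in KO and 9.62% in WT. Median depth in the anti-PD1 pair was 4773 UMIs in KO and 8011 in WT monocytes and macrophages, and its part in the shares was not tested beyond thinning.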

How the results depend on the processing

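No test was possible with 1 library per group, leaving out a replicate was impossible, and values were called moved when they left the main value's counting interval. No paired analysis was possible because each group has 1 library. Of 172 alternatives over 16 share ratios 151 stayed within the interval and 150 kept the direction, and 6 turned a ratio whose interval excluded 0. Of 72 over 8 level ratios 53 stayed, 67 kept the direction and 2 turned such a ratio. All values are log2 ratios and the causes of the changes were not tested. Without thinning, the anti-PD1 KO/WT share ratios turned to -0.13 (G2/M, monocytes and macrophages), -0.64 (G2/M, microglia), -0.30 (S, CD8 T) and -0.70 (S, monocytes and macrophages), and the KO anti-PD1/untreated ratio of monocytes and macrophages became -1.23. With 1 gene fewer for the gate, KO/WT ratios were -0.0070 (untreated CD4 T, G2/M, a change of sign), 0.26 (anti-PD1 monocytes and macrophages, G2/M) and 0.53 (the same, S), and anti-PD1/untreated CD8 T ratios -0.33 in KO and -0.79 in WT. With 1 gene more, KO/WT ratios were 1.88 (untreated CD4 T) and -0.87 (untreated monocytes and macrophages), and anti-PD1/untreated ratios -2.07 (KO CD8 T), 2.41 (KO monocytes and macrophages) and 0.52 (WT monocytes and macrophages, a change of sign). At least 4 members gave 1.86 (untreated CD4 T, KO/WT), -2.39 (CD8 T, anti-PD1/untreated, KO) and 2.94 (monocytes and macrophages, anti-PD1/untreated, KO, from 1 untreated cell). Thinning to 4000 UMIs gave anti-PD1/untreated CD8 T ratios of -0.026 in KO and -1.03 in WT. Thinning to 1000 UMIs gave -1.07 (untreated monocytes and macrophages, S). For summed levels, TMM and median-of-ratios factors gave -0.025 and -0.025 (untreated CD8 T, G2/M, a change of sign), 0.19 and 0.19 (untreated CD8 T, S), -0.044 and -0.044 (untreated monocytes and macrophages, S), -0.26 and -0.27 (anti-PD1 CD8 T, G2/M), 0.25 and 0.24 (anti-PD1 CD8 T, S), 0.50 and 0.50 (anti-PD1 monocytes and macrophages, G2/M) and 0.25 and 0.25 (the same, S). The mean over cells gave 0.21 and 0.36 (untreated CD8 T, G2/M and S), 0.28 (anti-PD1 CD8 T, S) and 0.51 (anti-PD1 monocytes and macrophages, G2/M), and leaving out cells with a brain-marker UMI gave 0.24 (untreated CD8 T, G2/M).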
